A study of Homo sapiens with 2 samples.

Results

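DUSP1, DUSP4, DUSP5, DUSP6, DUSP7, DUSP10, SPRY1, SPRY2, SPRY4 and SPRED1 are feedback genes of the MAP kinase pathways, and 10 of the 20033 protein-coding genes counted. They were taken by name, with every peak region inside each gene or within 50 kb of it. The set was selected on measured values of these same lists, namely the peak regions near its genes and above all the dense surroundings of DUSP1, so the values that follow describe it and support nothing further. Lysine lactylation was mapped in CAL27 cells, a human cell line from a squamous carcinoma of the tongue, by CUT&Tag, in which an antibody, here one that recognises lactyllysine whatever the protein, directs a transposase to cut and tag the neighbouring DNA. There were 2 libraries, 1 from CAL27 cells given 10 mM lactate for 24 hours and 1 from CAL27 cells with no treatment, and both used the same antibody. With 1 library per group nothing shows how far replicates would differ, and no test was run.

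The list deposited for the lactate sample held 50352 regions from 15120031 tags, and the list deposited for the untreated sample held 43680 regions from 15696147 tags. The headers go against the labels. Within each list the names of the run, of its input and of each summit (58929 in the lactate list and 49750 in the untreated list) are those of the other sample, and a single header line carries the label's. The labels were kept, the groups are called the library labelled lactate and the library labelled untreated, and every direction given here would be the opposite were the lists exchanged. Of 10 squamous epithelial marker genes, 9 had a region at an end or inside in the library labelled lactate (67.5% of all protein-coding genes), against 8 in the library labelled untreated (62.9%). Genes of other cell types had them too: in the library labelled lactate these were 5 of 5 neuronal, 4 of 5 endothelial, 4 of 5 blood and 3 of 5 fibroblast markers, while the library labelled untreated had 5, 4, 3 and 3 in that order of cell types. Within 1 kb of an end alone, the library labelled lactate had regions at 6 of the 10 squamous, 4 of 5 neuronal, 3 of 5 blood, 3 of 5 fibroblast and 0 of 5 endothelial markers (49.5% of all genes), while the library labelled untreated had 5, 4, 2, 2 and 2 in that order of cell types (43.5%). The mark is not expression, and these counts were not used to judge the cell type.

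MAP kinases carry signals from growth factor receptors and stress through a chain of kinases, and ERK, the kinase of the RAS branch, switches on genes that then limit it. The dual-specificity phosphatases (DUSP) remove the phosphates that activate MAP kinases. Sprouty (SPRY) and SPRED proteins act higher up, between receptor and RAF. In squamous carcinoma cells this pathway is driven largely by the EGF receptor.

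Promoter sequences of the members are given first where a peak region lay on them, since the start is where the mark and the gene can be read together. A RefSeq table on GRCh38.p14 (hg38, the build of the peak lists) held 12 start sites of 8 members and none of DUSP4 and DUSP5. The 250 bases before the outermost start are printed for DUSP1 (chr5:172771196-172771445), DUSP6 (chr12:89352502-89352751), DUSP10 (chr1:221742090-221742339) and SPRY2 (chr13:80341127-80341376), all from the minus strand and written 5′ to 3′ along the gene. Capitals mark the GC box and the cAMP response element described after them.
DUSP1: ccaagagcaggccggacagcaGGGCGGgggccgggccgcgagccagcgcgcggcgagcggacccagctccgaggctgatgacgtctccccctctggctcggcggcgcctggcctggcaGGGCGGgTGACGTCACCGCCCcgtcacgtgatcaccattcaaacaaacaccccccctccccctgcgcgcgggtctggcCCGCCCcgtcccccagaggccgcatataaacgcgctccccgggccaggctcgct
DUSP6: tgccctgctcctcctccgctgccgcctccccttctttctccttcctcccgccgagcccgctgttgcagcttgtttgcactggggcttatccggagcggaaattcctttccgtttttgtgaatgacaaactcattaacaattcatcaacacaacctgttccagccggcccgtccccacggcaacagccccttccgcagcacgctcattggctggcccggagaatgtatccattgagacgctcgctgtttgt
DUSP10: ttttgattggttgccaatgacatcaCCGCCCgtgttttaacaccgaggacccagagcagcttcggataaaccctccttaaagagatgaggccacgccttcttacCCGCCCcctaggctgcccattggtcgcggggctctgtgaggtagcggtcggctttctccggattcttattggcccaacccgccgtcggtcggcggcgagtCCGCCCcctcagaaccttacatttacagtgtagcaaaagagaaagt
SPRY2: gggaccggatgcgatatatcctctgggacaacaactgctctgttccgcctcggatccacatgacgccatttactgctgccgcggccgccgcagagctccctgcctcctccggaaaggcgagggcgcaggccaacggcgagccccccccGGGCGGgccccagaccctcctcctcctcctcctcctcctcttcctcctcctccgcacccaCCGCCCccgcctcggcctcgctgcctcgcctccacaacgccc

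The 6 motifs searched, on both strands, were the cAMP response element TGACGTCA, the GC box GGGCGG, the ETS core CCGGAAG, the AP-1 site TGANTCA and 2 fixed forms of the CArG box, the serum response element. The DUSP1 promoter alone held TGACGTCA, from 125 to 118 bases before the start, flanked by GC boxes that do not overlap it. Of all 34943 promoter windows of that length, 1.63% held it. GC boxes lay in 8 of the 12 member windows, against 42.5% of all windows, with 4 in DUSP1, 3 at the outer DUSP10 start, 2 at the outer SPRY2 start and none in DUSP6. The GC content of the 12 windows ran from 41.2% to 78.4%, against a median of 58.0% over all windows. Whether base composition accounts for the share with a GC box was not tested. The ETS core was found once, at the inner SPRY1 start (8.48% of all windows). The AP-1 site (6.59% of all windows) and both CArG box forms (0.0315% each) were found in none of the 12. A match of letters is no evidence of binding.

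Peak regions covered these windows to different degrees. The DUSP6 and the outer DUSP10 windows were covered over all 250 bases in both libraries. In DUSP1 the cover was 250 bases in the library labelled lactate, against 236 in the library labelled untreated. At SPRY2 the outer window was covered over 0 bases in the library labelled lactate, against 130 in the library labelled untreated, while the 250 bases before its middle start were covered over 152 bases in the library labelled lactate, against 0 in the library labelled untreated. The remaining 7 windows, of DUSP7, SPRY1, SPRY4, SPRED1 and the inner starts of DUSP10 and SPRY2, held no region in either library. The listed SPRY4 start lies inside the gene, and a region crossed the outer gene end in both libraries.

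Near the 10 genes lay 55 regions in the library labelled lactate, against 37 in the library labelled untreated. That is 1.49 times as many, against 1.15 times over all regions of the lists. All 10 genes had at least 1 region in both libraries, as did 90.5% of all protein-coding genes in the library labelled lactate and 89.4% in that labelled untreated. DUSP1, DUSP5, DUSP6 and DUSP7 had the most regions in the library labelled lactate, and DUSP10, SPRY1 and SPRED1 the fewest, with 2 each. The counts in the library labelled lactate were 12 at DUSP1, 5 at DUSP4, 11 at DUSP5, 6 each at DUSP6 and DUSP7, 2 at DUSP10, 2 at SPRY1, 4 at SPRY2, 5 at SPRY4 and 2 at SPRED1. Those in the library labelled untreated were 11 at DUSP1, 1 at DUSP4, 4 at DUSP5, 3 at DUSP6, 4 at DUSP7, 2 at DUSP10, 1 at SPRY1, 2 at SPRY2, 6 at SPRY4 and 3 at SPRED1. Thus 7 members had more regions in the library labelled lactate (50.1% of all genes), 2 had fewer (20.5%) and 1 had as many (29.5%). The widest differences were at DUSP5 and DUSP4, and without a replicate their spread is unknown. With equally long lists of the strongest regions the direction turned, to 13 in the library labelled lactate, against 17 in the library labelled untreated.

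**Figure D1:**
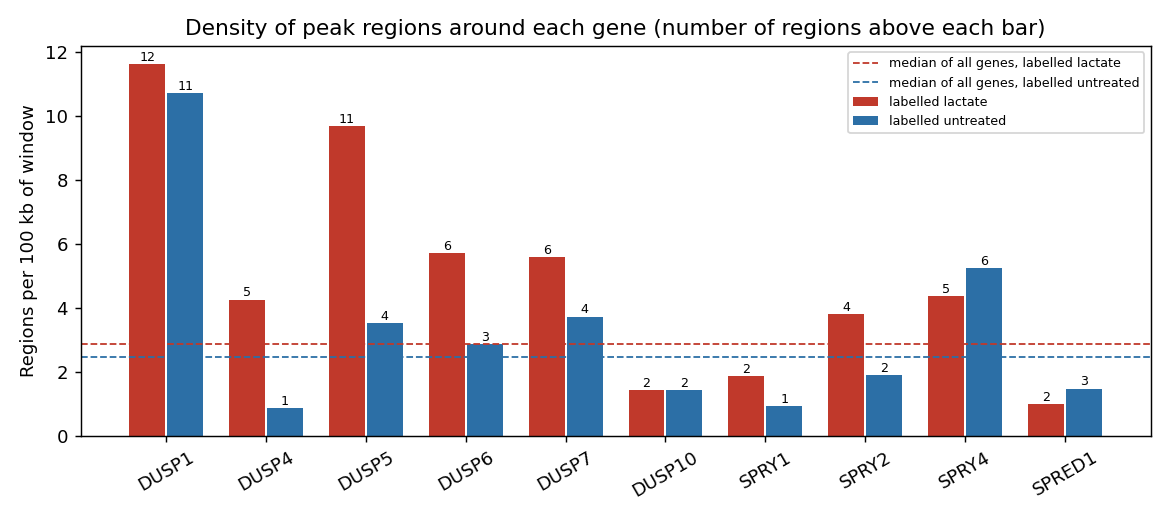
Regions per 100 kb of the gene with 50 kb to both sides (vertical axis), for each gene, in the library labelled lactate (red, left) and the library labelled untreated (blue, right); the number over each bar is the count of regions and the dashed lines are the medians over all protein-coding genes. DUSP1 stood highest in both libraries, at 11.6 regions per 100 kb in the library labelled lactate and at 10.7 in the library labelled untreated.

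Because the genes differ in length, the counts were also set per 100 kb of window. The median over the members was 4.31 regions per 100 kb in the library labelled lactate, against 2.38 in the library labelled untreated. Over all protein-coding genes the medians were 2.88 in the library labelled lactate, against 2.45 in the library labelled untreated. In the library labelled lactate DUSP1 had 11.6, DUSP5 9.68 and SPRED1, the longest gene of the set, 0.978. In the library labelled untreated DUSP1 had 10.7, DUSP5 3.52 and SPRED1 1.47. The order of the members differed between the libraries: DUSP5 was next after DUSP1 in the library labelled lactate, and SPRY4 (5.24) in the library labelled untreated. The widest steps were of 5 regions, between DUSP5 and DUSP6 in the library labelled lactate and between DUSP1 and SPRY4 in the library labelled untreated. Other neighbours in this order differed by at most 2 regions. With 1 library per group no spread is known, so neither the wide nor the narrow steps tell members apart.

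For the library labelled lactate, 28 of the 55 regions overlapped a region of the other list by at least 1 bp (50.9%, exact Clopper-Pearson 95% interval 37.1 to 64.6), against 61.2% of all its regions. For the library labelled untreated, 27 of 37 did (73.0%, interval 55.9 to 86.2), against 71.2% of all its regions. Both intervals include the share over the whole list, and they cover counting error only. The overlapping regions form 27 sites, since 1 region upstream of DUSP6 in the library labelled untreated met 2 in the library labelled lactate. Overlapping regions had a median pileup (the number of tags over the summit) of 24 tags in the library labelled lactate, against 18 in the library labelled untreated. Regions in 1 list alone had medians of 13 tags in the library labelled lactate, against 15.5 in the library labelled untreated. Among the 27 that only the library labelled lactate had, 17 were among the weakest 25% of that list by a recomputed p (44.2% of all its regions without an overlap), and 10 lay within 1 kb of a region of the other list (18.1%). Of the 28 overlapping ones 1 was so weak (12.8% of all its overlapping regions). Among the 10 that only the library labelled untreated had, 4 were in its weakest 25% (6285 of all its 12560 regions without an overlap) and 4 lay within 1 kb of a region of the other (17.9%). Of the 27 overlapping ones 4 were so weak (14.9%). The tags at these places in the other library were not analysed here.

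**Figure D2:**
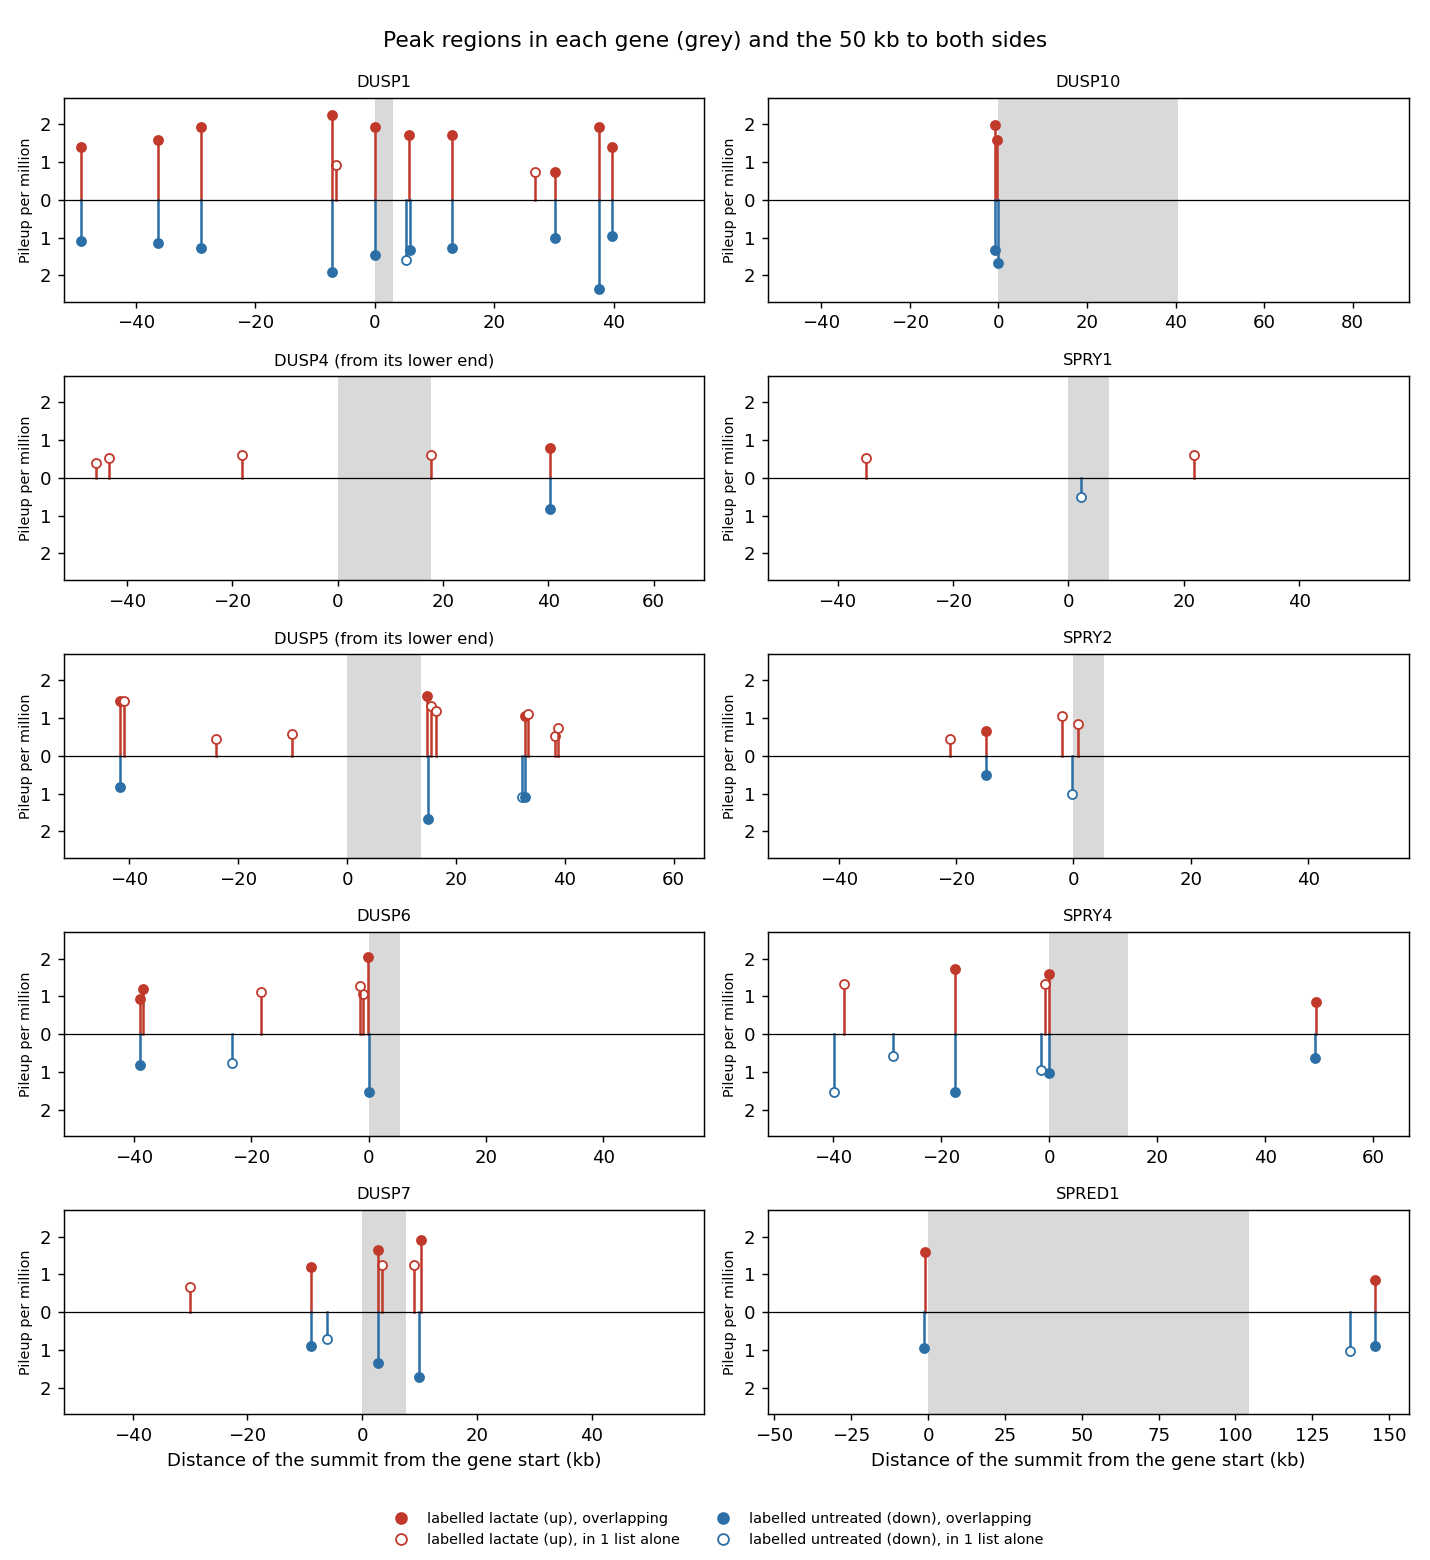
Pileup per 1000000 library tags (vertical axis) of each region against the distance of its summit from the gene start along the gene, in kb (for DUSP4 and DUSP5, from the lower end), with the gene in grey; the library labelled lactate points up in red and the library labelled untreated down in blue, filled where the regions overlap and open where a region is in 1 list alone. Filled points sit in pairs at 10 sites around DUSP1 and at 3 or fewer around each other gene. For SPRY4 the distances run from the outer gene end, not from the listed start used in the text.

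DUSP1 encodes a nuclear phosphatase of p38, JNK and ERK that growth factors and stress induce within minutes. It lies on chr5:172768096-172771195, and its start carried a region in both libraries. That region was chr5:172771110-172771500 with 29 tags in the library labelled lactate and chr5:172771078-172771431 with 23 tags in the library labelled untreated. The summits were 3 bp apart, 37 bp before the start in the library labelled lactate and at 34 bp in the library labelled untreated. The fold enrichment, given by the authors as pileup over local background, each plus 1, was 3.50 in the library labelled lactate, at the 12.5th percentile of its list, and 3.66 in the library labelled untreated, at the 18.9th. The tags over the start were thus above the list medians, 15 in the library labelled lactate, against 14 in the library labelled untreated, but its fold was not, being set against a high local background. That background, recomputed from pileup and fold, was 7.56 tags in the library labelled lactate, against 5.56 in the library labelled untreated. The lowest value of a list, which stands for the genome as a whole, was 0.976 tags in the library labelled lactate, against 1.01 in the library labelled untreated. The 7.56 tags at DUSP1 were the highest background at any member region of the library labelled lactate.

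Upstream of DUSP1 lay 4 sites found in both libraries, each with a higher enrichment than the start itself. The nearest, 7.17 kb before the start and inside the long noncoding gene LOC105377730, was chr5:172778233-172778494 with 34 tags (fold 7.26) in the library labelled lactate and chr5:172778259-172778559 with 30 tags (6.95) in the library labelled untreated. At 29.1 kb, chr5:172800015-172800478 had 29 tags (6.47) in the library labelled lactate and chr5:172800035-172800458 had 20 (4.53) in the library labelled untreated. At 36.2 kb, chr5:172807244-172807563 had 24 tags (7.27) in the library labelled lactate and chr5:172807260-172807525 had 18 (5.83) in the library labelled untreated. All 4 upstream sites stood at lower backgrounds than the start, 2.1 to 3.82 tags in the library labelled lactate and 2.22 to 3.64 in the library labelled untreated. The farthest, 49.1 kb upstream, was chr5:172820219-172820455 with 21 tags (7.10) in the library labelled lactate and chr5:172820112-172820738 with 17 tags (5.59) in the library labelled untreated. One more region, chr5:172777536-172777735 with 14 tags (2.93), was in the library labelled lactate alone. It lay 0.524 kb from the other library's region at 7.17 kb.

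Downstream lay 5 further sites found in both libraries. Beyond the gene's 3′ end, chr5:172765325-172765801 had 26 tags (fold 3.52) in the library labelled lactate and chr5:172765145-172765519 had 21 tags (3.24) in the library labelled untreated. Beside it, chr5:172765862-172766102 with 25 tags (3.67) was in the library labelled untreated alone, 61 bp from the region of the other list. At 12.9 kb past the start, inside LOC101928093, chr5:172758108-172758519 had 26 tags (6.78) in the library labelled lactate and chr5:172758086-172758612 had 20 tags (5.33) in the library labelled untreated. The next pair of sites were the exceptions at DUSP1, with more tags in the library labelled untreated. At 30.2 kb, chr5:172740913-172741112 had 11 tags (3.33) in the library labelled lactate and chr5:172740901-172741100 had 16 (5.35) in the library labelled untreated. At 37.4 kb, chr5:172733606-172734009 had 29 tags (4.41) in the library labelled lactate and chr5:172733573-172734189 had 37 (6.62) in the library labelled untreated. The last, 39.7 kb past the start, was chr5:172731423-172731807 with 21 tags (3.34) in the library labelled lactate and chr5:172731446-172731645 with 15 tags (2.72) in the library labelled untreated. Alone in the library labelled lactate lay chr5:172744275-172744501, with 11 tags (3.66), 3.17 kb from any region of the other.

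**Figure D3:**
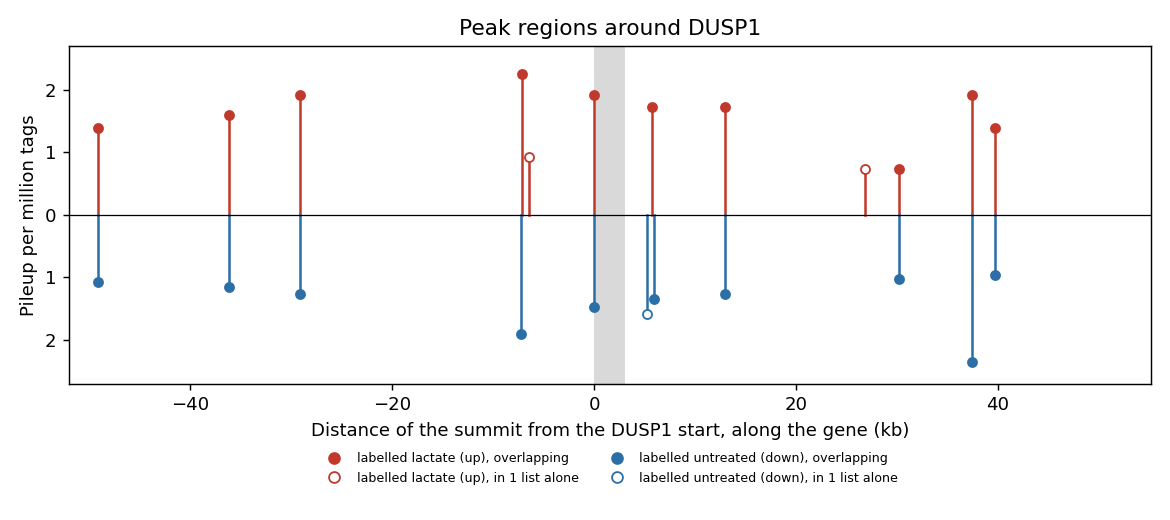
Regions within 50 kb of DUSP1 (grey): pileup per 1000000 library tags against the distance of the summit from the gene start, in kb along the gene, with the library labelled lactate up in red and the library labelled untreated down in blue, filled where the regions overlap. The 10 shared sites mirror each other from 49.1 kb upstream to 39.7 kb downstream, with summits 2 to 184 bp apart.

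The members were proposed with this density in view, so it is a description. Of the 20033 genes, 128 had more regions per 100 kb than DUSP1 in the library labelled lactate, against 65 in the library labelled untreated. For comparison, the 99th percentile of all genes was 10.9 regions per 100 kb in the library labelled lactate, against 9.32 in the library labelled untreated. Neighbouring regions at DUSP1 were a median of 6.76 kb apart in both libraries. The genes on other chromosomes whose density was closest to that of DUSP1 over the 2 libraries were ACTB, SOCS3, ATG2A, TMEM151A and C10orf62. ACTB, SOCS3, TMEM151A and C10orf62 each had 12 regions in the library labelled lactate, against 11 in the library labelled untreated, as DUSP1 had, and ATG2A, with a longer window, had 14 in the library labelled lactate, against 13 in the library labelled untreated. Summed over the libraries, their differences from DUSP1 ran from 0.0763 to 0.416 regions per 100 kb.

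DUSP4, a nuclear phosphatase of ERK and JNK, lies on chr8:29333064-29350684 and had 5 regions in the library labelled lactate, against 1 in the library labelled untreated. At its upper end chr8:29350608-29350807 held 9 tags (fold 3.11) in the library labelled lactate, at the 4.12th percentile of that list by recomputed p. The other list had no region within 22.5 kb of it. The single site in both libraries was 22.6 kb above the gene, chr8:29373322-29373635 with 12 tags (5.37) in the library labelled lactate and chr8:29373299-29373498 with 13 tags (5.79) in the library labelled untreated. Its fold was above the median of each list, and it was the only region near DUSP4 in the library labelled untreated. Below the gene the library labelled lactate alone had chr8:29286985-29287184 with 6 tags (3.27), chr8:29289551-29289777 with 8 (3.95) and chr8:29314552-29314905 with 9 (4.17). Their 6 to 9 tags are close to 6, the lowest pileup in either list, so at this depth the lists cannot show whether the library labelled untreated differed there.

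DUSP5, a nuclear phosphatase selective for ERK, lies on chr10:110497907-110511533 and had no region inside it in either library. The site with the most tags, just past the upper end, was chr10:110512486-110512992 with 24 tags (fold 3.53) in the library labelled lactate and chr10:110512560-110512997 with 26 tags (3.59) in the library labelled untreated. These overlap by 433 bp and differ by 2 tags. As the first starts 953 bp and the second 1027 bp from the gene end, only the first falls within 1 kb of it. In the library labelled lactate alone this site went on as chr10:110513296-110513495 with 20 tags (2.86) and chr10:110513969-110514283 with 18 tags (2.59), at backgrounds of 6.34 tags each. Their folds are among the lowest of that list, at percentiles of 2.19 and 0.7.

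Below DUSP5, 41.5 kb away, chr10:110456170-110456387 had 22 tags (fold 4.46) in the library labelled lactate and chr10:110456192-110456514 had 13 (3.20) in the library labelled untreated. Its ratio of depth-scaled pileups, 1.76 (95% interval 0.847 to 3.80), was the highest of the 27 sites. Beside it the library labelled lactate alone had chr10:110456562-110457009 with 22 tags (4.44), 48 bp from the other list's region. The third site in both libraries lay 18.9 kb above the gene, chr10:110530392-110530591 with 16 tags (3.54) in the library labelled lactate and chr10:110530376-110530838 with 17 (3.64) in the library labelled untreated. It had a neighbour on either side in 1 list alone. One was, in the library labelled lactate, chr10:110531151-110531350 with 17 tags (3.85), the other, in the library labelled untreated, chr10:110530028-110530227 with 17 tags (3.60). The other regions near DUSP5 were all in the library labelled lactate alone. They were chr10:110473780-110473979 with 7 tags (3.20), chr10:110487614-110488072 inside the divergent transcript DUSP5-DT with 9 (3.33), chr10:110536054-110536309 with 8 (3.10) and chr10:110536521-110536752 with 11 (4.72). Of the 8 regions in that library alone, 4 thus lay within 1 kb of a region of the other list.

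DUSP6, the cytoplasmic phosphatase that is selective for ERK and a common readout of its activity, lies on chr12:89347235-89352501. A region crossed its start in both libraries, chr12:89352003-89352851 with 31 tags (fold 5.69) in the library labelled lactate and chr12:89352291-89352771 with 24 tags (5.51) in the library labelled untreated. Of the 3 listed member starts covered by a region, this one had the highest fold in the library labelled lactate, and the outer DUSP10 start, at 5.58, in the library labelled untreated. The readthrough gene POC1B-DUSP6 spans the start and all the regions upstream of it. Next to it the library labelled lactate alone had chr12:89353333-89353618 with 16 tags (3.0) and chr12:89353969-89354183 with 19 tags (3.47). Farther upstream, 38.4 kb from the start, chr12:89390794-89391098 with 18 tags (6.38) and chr12:89391396-89391671 with 14 tags (5.07) in the library labelled lactate met a single region, chr12:89390889-89391584 with 13 tags (5.15), in the library labelled untreated. Between these, 4.47 kb apart, lay chr12:89370747-89371264 with 17 tags (4.92) in the library labelled lactate alone and chr12:89375739-89375984 with 12 tags (3.89) in the library labelled untreated alone.

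DUSP7, the other cytoplasmic ERK phosphatase of the set, lies on chr3:52048919-52056571 and had no region within 1 kb of either end. Inside it, 2.76 kb past the start, chr3:52053616-52054251 had 25 tags (fold 4.53) in the library labelled lactate and chr3:52053642-52053945 had 21 tags (4.72) in the library labelled untreated. Beyond its 3′ end, in LOC124906238, lay the longest regions near any member, chr3:52045685-52046938 (1254 bp, 29 tags, 4.52) in the library labelled lactate and chr3:52045689-52046904 (1216 bp, 27 tags, 4.78) in the library labelled untreated. Both places had a smaller neighbour in the library labelled lactate alone, chr3:52053011-52053210 with 19 tags (3.36) and chr3:52047371-52047570 with 19 tags (3.09). At 8.99 kb upstream chr3:52065412-52065649 had 18 tags (3.70) in the library labelled lactate and chr3:52065461-52065660 had 14 tags (3.81) in the library labelled untreated. The remaining regions were weak ones in 1 list alone, chr3:52086560-52086759 with 10 tags (3.16) in the library labelled lactate, inside POC1A, and chr3:52062552-52062863 with 11 tags (2.79) in the library labelled untreated, inside LINC00696.

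DUSP10, a phosphatase of p38 and JNK, lies on chr1:221701424-221742089. Its regions were the same pair at the outer start in both libraries, with nothing else in a window of 141 kb. Across the start lay chr1:221742066-221742523 with 24 tags (fold 4.61) in the library labelled lactate and chr1:221742088-221742467 with 26 tags (5.58) in the library labelled untreated. Next to it lay chr1:221742679-221743072 with 30 tags (5.72) in the library labelled lactate and chr1:221742736-221743093 with 21 tags (4.64) in the library labelled untreated. The stronger summit was the farther one from the gene in the library labelled lactate and the nearer one in the library labelled untreated. Neither difference exceeded counting error, with pileup ratios of 0.958 (0.527 to 1.74) at the start and 1.48 (0.821 to 2.73) beside it.

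SPRY1, an inhibitor of signalling from receptor tyrosine kinases to RAS, lies on chr4:123396795-123403760 and shared no site between the libraries. The library labelled lactate had chr4:123361648-123361847 with 8 tags (fold 4.56) and chr4:123418498-123418707 with 9 tags (5.06). The library labelled untreated had chr4:123398868-123399110 with 8 tags (3.54), 0.658 kb past the inner start. All 3 had few tags, below the median pileup of their lists, and the nearest of them in different lists were 19.4 kb apart.

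SPRY2, the Sprouty protein best known for binding CBL and GRB2, lies on chr13:80335976-80341126. Each library had a region at its starts, but at different places 841 bp apart. That of the library labelled lactate was chr13:80340207-80340406 with 13 tags (fold 3.29), before the middle of 3 listed starts. That of the library labelled untreated was chr13:80341247-80341446 with 16 tags (4.17), before the outermost start, on the sequence printed above. Farther out the library labelled lactate alone had chr13:80342844-80343054 with 16 tags (4.25), so its calls lay on both sides of the other library's call. The site in both libraries was 14.8 kb upstream, chr13:80355807-80356038 with 10 tags (5.57) in the library labelled lactate and chr13:80355826-80356038 with 8 tags (4.47) in the library labelled untreated. Its background, 0.976 tags in the library labelled lactate, against 1.01 in the library labelled untreated, is the lowest of each list. The last region, chr13:80361989-80362202 with 7 tags (4.04) inside LOC105370276, was in the library labelled lactate alone.

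SPRY4, an inhibitor of RAS and RAF activation, lies on chr5:142310430-142325021 and, with SPRED1, had more regions in the library labelled untreated. Its strongest site was also the member region of highest fold in each library. It lay 18.2 kb upstream of the listed start, inside the antisense gene SPRY4-AS1, at chr5:142342270-142342975 with 26 tags (fold 8.33) in the library labelled lactate and chr5:142342275-142343028 with 24 tags (7.76) in the library labelled untreated. These folds stood at the 94.0th percentile of the list in the library labelled lactate and the 94.4th in the library labelled untreated. At the upper gene end chr5:142324865-142325218 had 24 tags (4.30) in the library labelled lactate and chr5:142325013-142325212 had 16 (3.07) in the library labelled untreated. SPRY4 is on the minus strand, so this end is the outer start of the annotated gene, and both regions crossed it. The listed start lies inside the gene. The summit was 766 bp before that listed start in the library labelled lactate and 860 bp before it in the library labelled untreated, outside its sequence window. Just inside SPRY4-AS1 followed chr5:142325674-142326123 with 20 tags (3.62) in the library labelled lactate alone and chr5:142326345-142326620 with 15 tags (3.0) in the library labelled untreated alone, 222 bp apart. The site downstream was chr5:142275551-142275833 with 13 tags (4.64) in the library labelled lactate and chr5:142275666-142275865 with 10 tags (4.51) in the library labelled untreated. Deeper inside SPRY4-AS1, in 1 list alone, were chr5:142362805-142363004 with 20 tags (4.45) in the library labelled lactate, and chr5:142353806-142354201 with 9 tags (3.31) and chr5:142364645-142364849 with 24 tags (5.71) in the library labelled untreated. Among the regions in that library alone, only the 25 tags downstream of DUSP1 were more than these 24, and the region lay 1.64 kb from a region of the other.

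SPRED1, which brings the RAS inactivator neurofibromin to the membrane, lies on chr15:38252836-38357249. Over its 104414 bp it held no region in either library. Just before its start chr15:38251540-38252227 had 24 tags (fold 6.04) in the library labelled lactate and chr15:38251175-38252175 had 15 tags (3.96) in the library labelled untreated, with a pileup ratio of 1.66 (0.836 to 3.41) and summits 390 bp apart. Beyond the 3′ end chr15:38398249-38398568 had 13 tags (6.67) in the library labelled lactate and chr15:38398239-38398458 had 14 tags (6.52) in the library labelled untreated. The library labelled untreated alone had chr15:38390012-38390278 with 16 tags (7.08), at the 90.6th percentile of its list by fold and 7.97 kb from the nearest region of the other.

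**Figure D4:**
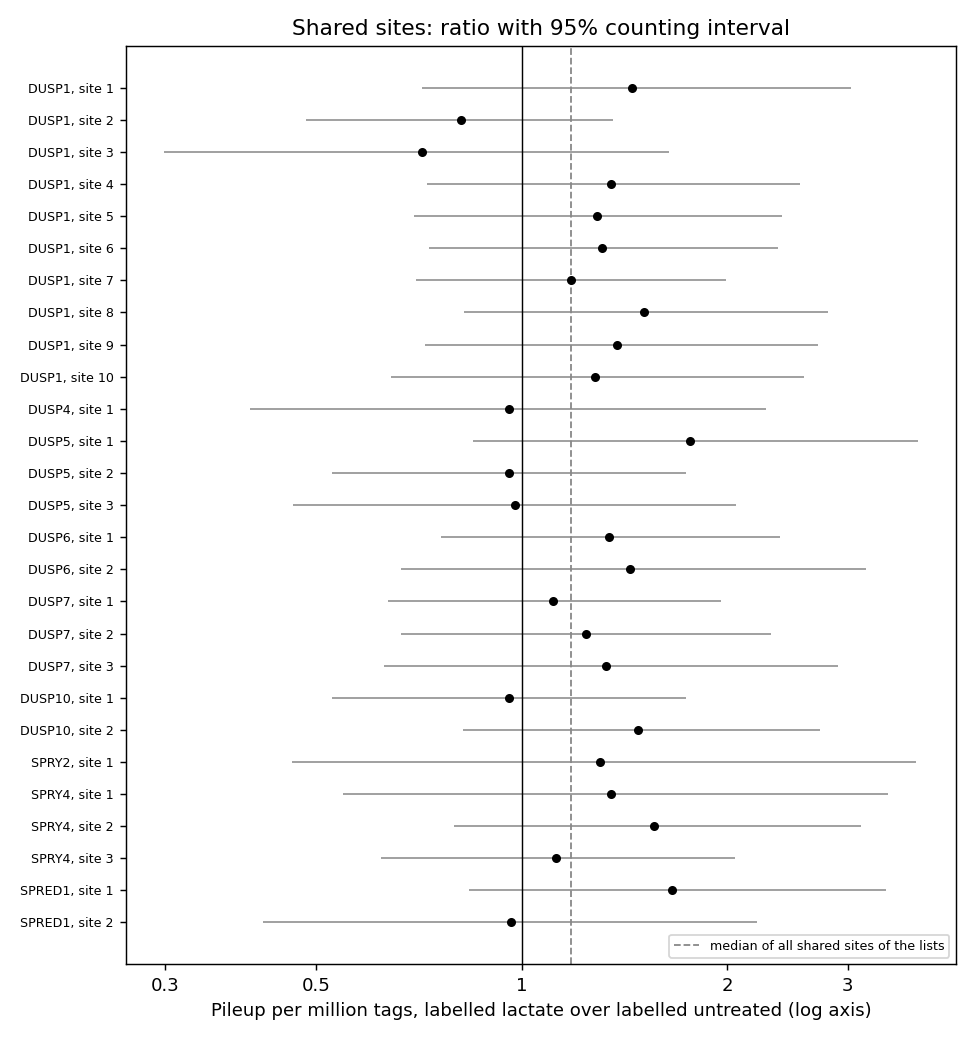
Ratio of the pileup per 1000000 library tags, library labelled lactate over library labelled untreated (horizontal, log axis), at each of the 27 sites in both libraries, numbered within a gene by increasing position, with exact 95% counting intervals; the dashed line is the median over all 30217 shared sites. All 27 intervals include 1, and 20 points lie above it.

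Over the 27 sites the pileup scaled to depth was higher in the library labelled lactate at 20 (74.1%, against 71.2% of the 30217 sites shared over the whole lists) and lower at 7. Each comparison takes the summit of highest fold in each library, and these lay 2 to 540 bp apart (median 40), so some compare different positions. The gap of 540 bp was upstream of DUSP6, where 18 tags stood for the library labelled lactate and its other region had 14. The ratio ran from 0.714 at DUSP1, 30.2 kb past its start, to 1.76 below DUSP5, with a median of 1.3. The median over all shared sites was 1.18, with quartiles of 0.964 and 1.44. None of the 27 exact conditional intervals excluded 1. Summed over the sites, 609 tags in the library labelled lactate, against 519 in the library labelled untreated gave 1.22 (1.08 to 1.37), an interval that includes the median of all sites. Background moved the same way, with a median ratio of 1.19, and the fold enrichments had a median ratio of 1.04. With no control, background is estimated from the same library's own tags, so it is not a measure independent of the pileup. Whether the difference in background accounts for that in pileup was not tested.

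Gene ends, meaning any position within 1 kb of a gene's first or last base, carried a region in 8 of the 10 members in the library labelled lactate (49.5% of all protein-coding genes) and in 6 of 10 in the library labelled untreated (43.5%). DUSP1, DUSP6, DUSP10, SPRY2, SPRY4 and SPRED1 were marked in both (39.8% of all genes). At SPRY2 this rests on different regions in the libraries, 841 bp apart and without overlap. The library labelled lactate alone had marked ends at DUSP4 and DUSP5 (9.69% of all genes), at DUSP4 by its region of 9 tags and at DUSP5 because the other library's overlapping region began 27 bp past the limit. Both were upper ends, and neither gene had a listed start, so these ends were not assigned to the start or the 3′ end. The region inside the divergent transcript DUSP5-DT lay on the other side of DUSP5, below the gene. DUSP7 and SPRY1 were marked in neither (46.8%), and no member in the library labelled untreated alone (3.74%). At the ends the 11 member regions of the library labelled lactate had a median of 24 tags but a median fold of 3.62. The 7 of the library labelled untreated had 21 tags and 4.17. Outside the genes the medians were 16.5 tags and 4.33 over 42 regions in the library labelled lactate, and 16.5 tags and 4.52 over 28 in the library labelled untreated. The median background was 4.62 tags at the ends and 2.54 outside the genes in the library labelled lactate, while in the library labelled untreated it was 3.74 at the ends and 3.12 outside. Medians at the ends of all genes are not given here, so these contrasts cannot be called particular to the members.

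The member regions as a whole had a median of 18 tags in the library labelled lactate, against 17 in the library labelled untreated, each above the median of its whole list. The median fold of member regions was 4.25 in the library labelled lactate (whole list 4.87), against 4.51 in the library labelled untreated (whole list 4.63). Their median background was 3.26 tags in the library labelled lactate (whole list 2.20), against 3.38 in the library labelled untreated (whole list 2.12). Folds of at least 5 were found in 15 member regions of the library labelled lactate (27.3%, against 47.3% of its list) and in 14 of the library labelled untreated (37.8%, against 39.6%). Regions of 200 bp, the shortest in the lists, made up 14 of the 55 member regions in the library labelled lactate (25.5%, against 13.8% of its list) and 8 of the 37 in the library labelled untreated (21.6%, against 16.0%). No overlap with the other list was found for 12 of these 14 and for 2 of these 8. The matching shares over all regions of 200 bp are not given here, so neither count can be called special to these genes.

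At the border of 50 kb, the DUSP1 region just inside lay 49.0 kb from the gene with 21 tags (fold 7.10) and the one just outside 51.0 kb away with 21 tags (4.70), both in the library labelled lactate. For DUSP5 a region of 10 tags (4.44) in the library labelled lactate lay just outside, at 50.4 kb.

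Other genes of the pathway were counted at their ends in the same way, from lists that had been drawn up with earlier results of these data known. For all protein-coding genes the shares are 49.5% in the library labelled lactate, 43.5% in the library labelled untreated, 9.69% only in the library labelled lactate, 3.74% only in the library labelled untreated and 46.8% in neither. Of 10 further DUSP, SPRY and SPRED genes, 8 were marked in the library labelled lactate, against 5 in the library labelled untreated. DUSP2 (17 tags, fold 3.09), DUSP16 (12 tags, 3.05) and SPRED2 (13 tags, 2.60) were so only in the library labelled lactate, all with low folds, and DUSP9 and SPRY3 in neither. Of 17 genes from adaptor proteins to ERK, 14 were marked in the library labelled lactate, against 13 in the library labelled untreated. HRAS (28 tags, fold 3.6) and NRAS (11 tags, 5.36) were so only in the library labelled lactate. GAB1 was so only in the library labelled untreated, by 6 tags (3.1), the lowest pileup in either list. BRAF and MAP2K2 were marked in neither. The JNK and p38 kinases had 9 of 12 genes marked in the library labelled lactate, against 8 in the library labelled untreated. MAP2K3 (44 tags, fold 3.47) and MAPK11 (27 tags, 3.86) were so only in the library labelled lactate. MAPK13 (16 tags, 3.9) was so only in the library labelled untreated, and MAP2K6 and MAP2K7 in neither. Other negative regulators of RAS and ERK, such as NF1 and ERRFI1, had 9 of 10 genes marked in both libraries and SPSB1 in neither. Of 11 ERK-induced transcription factor and immediate early genes, 10 were marked in the library labelled lactate, against 9 in the library labelled untreated. JUNB (32 tags, fold 3.12) was so only in the library labelled lactate, and FOS in neither.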

How the data were processed

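CUT&Tag with an antibody against lactylated lysine was carried out on CAL27 cells, 1 library per group. The submitters' processing notes name hg38, fastp 0.20.0, MACS2 2.1.0 and BWA. Per the file headers, peaks of each library were called by MACS 2.1.0.20150420 with no control. Its q limit was 0.05, tags were shifted by -100 bp and extended to 200 bp, the local background spanned 10000 bp and the genome size was set to 3099750718. The deposited pileup is a signal in tags over the summit, not scaled for depth. The deposited fold enrichment is a ratio of pileup to background, with 1 added to both. The use of a spike-in is stated in none of the sources used here. No library without the antibody was analysed here, so cuts that open chromatin alone attracts count towards every pileup.

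Summits of 1 start and end were collapsed to a region, represented by its summit of highest fold. Regions were compared by overlap of at least 1 bp. Genes and promoters came from RefSeq tables for GRCh38.p14, matched by symbol. Background was recomputed as pileup plus 1 over fold, minus 1, and p as the Poisson upper tail. Where several overlapping regions form a site, that of highest fold stands for it in each library. Intervals are exact binomial ones at 95% and cover counting error only. They treat tags, or regions, as independent. Tags are not independent molecules, so the true error may be larger than the intervals show. The library labelled lactate had 15120031 tags and the library labelled untreated 15696147.

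The members, lists, motifs and rules were chosen with earlier results of these data known. All 10 members were named, and every region near them was given. Genes most like DUSP1 were the 5 on other chromosomes with the smallest summed difference in regions per 100 kb, and list members were named where marked in 1 library alone. Alternatives were stricter peaks, equal lists, other windows and overlaps, summits in place of regions and other scalings. Overlap counts were checked against bedtools 2.31.1. Tools were numpy 2.4.6, SciPy 1.17.1, pandas 2.3.3 and, for plots, matplotlib 3.10.9, under Python 3.11.15.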

Additional observations from a re-analysis of the deposited data

How the results depend on the processing

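Regions near the 10 genes in the library labelled lactate, 55 as reported, numbered 15 at a fold of at least 5, 26 where the recomputed −log10 p reached 7, 13 with equal lists of the 21840 strongest regions, 32 within 20 kb and 85 within 100 kb. Those in the library labelled untreated, 37 as reported, numbered 14, 21, 17, 22 and 57 under these settings, so with equal lists the direction turned. The overlapping share in the library labelled lactate, 50.9%, was 66.7% at a fold of at least 5, 69.2% at a −log10 p of at least 7, 76.9% with equal lists and 69.1% where a gap of up to 1 kb counted as shared. The last setting, and a count without DUSP1 (43 regions in the library labelled lactate, against 26 in the library labelled untreated), were chosen after seeing the data. Members marked at a gene end in the library labelled lactate, 8 as reported, numbered 3 at a fold of at least 5, 3 with equal lists and 5 within 250 bp of the ends. Those in the library labelled untreated, 6 as reported, numbered 2 at a fold of at least 5, 2 with equal lists and 3 at a −log10 p of at least 7. The median pileup ratio at shared sites, 1.3, was 1.04 from fold enrichments. The thresholds and windows themselves set these counts, and the cause was not tested otherwise. Shares over the whole lists and over all genes are not given at these settings. The changes therefore cannot be read as particular to the members. The other 23 values stayed within 1.5 times the count or within the interval of the share or ratio. For the ratio this was the interval of the summed tags (1.08 to 1.37), as none was computed for the median. No paired analysis was possible because each group had 1 library. Pileups of 6 to 37 tags limit what can be told apart at a single site.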
